A study of Sus scrofa with 23 samples.

Results

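Kidney cortex RNA of all 23 newborn pigs of the series was described along 1 axis, the number of disrupted CFTR alleles. The genotype label set that number at 0 for CFTR+/+ pigs (WT, n = 6), 1 for CFTR+/- pigs (HET, n = 6) and 2 for CFTR-/- pigs (CF, n = 11). Each library came from another newborn pig, and the tissue was cortex from a similar position of the kidney. The animals were of the outbred CFTR-targeted pig line, carriers having been mated to give the CF piglets, and the labels give neither litter nor sex. All genes were fitted with allele number as a numeric term, so each gene has a slope, the log2 difference per additional disrupted allele. The slope rests most on the libraries labelled WT and CF, since HET lies in the middle.

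CFTR is a cAMP-gated anion channel of epithelial apical membranes, and its loss on both alleles causes cystic fibrosis. Carriers of a single disrupted allele are clinically healthy in most respects, so an allele series asks whether a gene's RNA level in carriers lies with WT, midway, or with CF. In the kidney, CFTR is found along several nephron segments, among them the proximal tubule, which takes back amino acids, glucose and water from the filtrate.

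Libraries held 32901194 to 52952229 estimated counts (WT 37975350 to 48454280, HET 39370505 to 52952229, CF 32901194 to 50313836), and 21434 genes passed the expression filter. All 18 listed proximal tubule markers passed the filter, with a summed level of 9055 to 17794 CPM (counts scaled by library size) over the libraries, and so did all 14 podocyte markers, at 1558 to 2516 CPM. Some library properties moved with the labels. Leftover 18S ribosomal RNA (RN18S) took 0.0877% to 7.13% of the counts of the WT libraries, 0.0933% to 0.539% in HET and 0.062% to 0.239% in CF, with WT pig 12 at the top. RN18S was itself among the falling genes, with a slope of -1.70 (SE 0.317, adjusted p = 0.0171) that missed the limit at up to 0.228 with 1 library left out. The size of that slope leans on WT pig 12, at 71280 CPM against 876.6 to 3952.5 in the other WT libraries. The Y-linked gene EIF1AY was above 10 CPM in 2 of 6 WT, 5 of 6 HET and 6 of 11 CF libraries. Pig numbers 1 to 6 and 12 to 18 (lower-numbered) and 7 to 11 and 19 to 23 (higher-numbered) had separated in an earlier look at these data, so slopes are also given within each set, although the labels name no batch.

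CFTR itself rose with the number of disrupted alleles. Its RNA lay between 1.27 and 3.67 CPM in the libraries labelled WT (median 2.24), between 9.4 and 17.5 in HET (median 12.1) and between 12.5 and 23.5 in CF (median 20.7). Every HET and CF library was above every WT library, and the ranges of HET and CF overlapped. These levels rest on 60 to 178 counts per WT library, 442 to 699 in HET and 614 to 1040 in CF. The group means were 2.26 ± 0.794 CPM (SD, n = 6), 12.6 ± 2.75 (SD, n = 6) and 19.9 ± 3.22 (SD, n = 11), a slope of 1.44 (SE 0.145, adjusted p = 6.373e-06). A permutation test of the labels over the 23 libraries (two-sided, 100000 resamples) gave p = 1e-05, the smallest it can give, and the exact Jonckheere-Terpstra rank test gave p = 6.083e-08. The annotation holds 4 CFTR transcripts. The curated one, of 4449 bases, was given 16.9 to 92.2 estimated counts in WT, 208.6 to 233.1 in HET and 296.6 to 480.2 in CF, without overlap and before any scaling for depth. The predicted one of 6127 bases overlapped between HET (156.6 to 426.4) and CF (279.6 to 568.3). How reads are split between such transcripts is itself an estimate. The slope of the gene was 1.41 in the lower-numbered and 1.49 in the higher-numbered pigs. The direction goes against a loss of transcript with the disrupted alleles, so the groups are called here by their labels, and no direction below is read as an effect of less CFTR RNA. Whether the labels are right could not be checked further here, and were WT and CF exchanged, the sign of every slope would turn. The counts say how much RNA of the gene was matched and not whether it encodes a working channel.

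**Figure D1:**
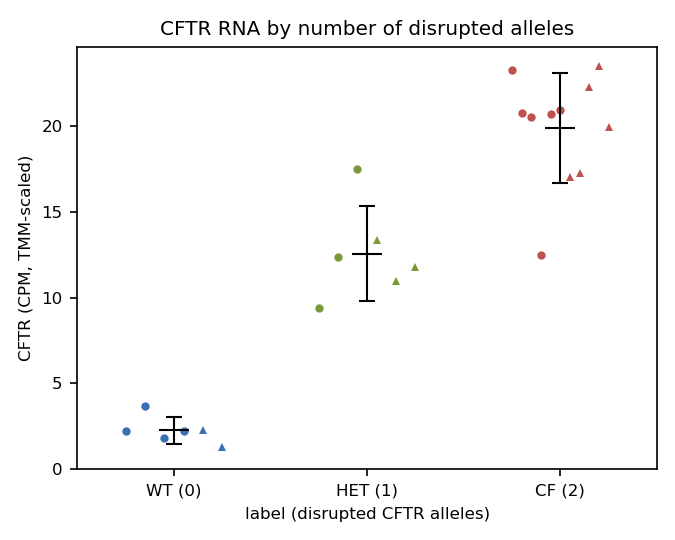
CFTR RNA in CPM (vertical axis, from 0) in each of the 23 libraries by label and number of disrupted alleles. Circles are lower-numbered and triangles higher-numbered pigs, and bars give the mean with the SD. The WT libraries lie between 1.27 and 3.67 CPM, below all HET and CF libraries.

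CFTR did not rise in equal steps. The HET minus WT step was 2.47 on the log2 scale and the CF minus HET step 0.66, which put HET at 0.79 of the way from WT (0) to CF (1). The HET mean lay 0.91 (SE 0.146, adjusted p = 0.02039) above the straight line between WT and CF. That call was lost at an adjusted p of 0.05104 without WT pig 12, 0.0567 without WT pig 17, 0.05029 without WT pig 18, 0.06769 without HET pig 14 and 0.08848 without HET pig 15, and it was 0.06047 with EIF1AY as a term.

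Across all genes, 98 of 21434 changed with allele number (0.457%), 53 rising (0.247%) and 45 falling (0.21%), and 3058 genes had an unadjusted p under 0.05. The slopes of the 98 genes were small, with a lowest size of 0.12 and a median size of 0.28, and only CFTR and RN18S were above 1 in size. The size for RN18S leans on WT pig 12, which was far above the other WT libraries. The median slope of all genes tested was -0.001, and 49.7% of them were above 0. The balance of directions depended on the scaling: upper-quartile normalization gave 47 rising and 110 falling genes. With RN18S as a term, chosen after seeing the data, CFTR was the only gene that passed. All 98 kept their direction and 97, all but RN18S itself, had an unadjusted p under 0.05. Those 98 were chosen by their small p in the same libraries, so this is no separate support for them. With WT pig 12 also left out, again only CFTR passed, and 97 of the 98 kept their direction.

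The number of calls also moved with single libraries. It was 44 without WT pig 12, 36 without WT pig 16, 41 without WT pig 17, 26 without WT pig 18 and 193 without WT pig 23. It was 152 without HET pig 13 and 58 without HET pig 14. Among CF pigs it was 47 without pig 2, 63 without pig 3, 255 without pig 4, 41 without pig 5, 38 without pig 7, 45 without pig 8 and 63 without pig 9. Under every omission of 1 library 18 of the 98 genes still passed. These were the rising CFTR, RSBN1, KLHL24, CHMP1B, KLF10, PCMTD1, KLF9 and LOC100624113 and the falling GPR37, NT5C1A, MEST, AK5, ALDH1A1, TICRR, ACOT7, PGM3, CDCA7 and MCM10.

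RSBN1, a nuclear protein with histone demethylase activity, lay between 40.0 and 49.2 CPM in WT (median 47.5), 47.6 and 57.8 in HET (median 51.4) and 52.9 and 71.2 in CF (median 59.5). All 11 CF libraries were above all WT libraries, and its slope was 0.21 (SE 0.0346, adjusted p = 0.007592). CHMP1B, a subunit of the ESCRT-III membrane-scission machinery, lay between 50.5 and 56.4 CPM in WT, 58.6 and 67.6 in HET and 60.3 and 79.3 in CF. For CHMP1B neither HET nor CF overlapped WT, and the slope was 0.19 (SE 0.0314, adjusted p = 0.007982). VPS4B, the ATPase that takes ESCRT-III apart, was also among the 98 (named after its values were seen) and rose by 0.12 per allele (adjusted p = 0.04453), from 60.1 ± 3.43 CPM in WT (SD, n = 6) to 70.6 ± 4.01 in CF (SD, n = 11).

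The transcription factors KLF10 and KLF9 rose as well. KLF10, which is induced by TGF-beta, lay between 36.2 and 53.3 CPM in WT, 40.1 and 66.1 in HET and 50.04 and 93.8 in CF, a slope of 0.35 (SE 0.0608, adjusted p = 0.01183). Its HET libraries overlapped both other groups, and 10 of 11 CF libraries were above all WT libraries. KLF9, a glucocorticoid- and clock-responsive factor, rose in nearly equal steps of 0.24 and 0.25, with group means of 60.1 ± 7.26, 71.0 ± 5.27 and 84.6 ± 14.1 CPM (SD, n = 6, 6 and 11; adjusted p = 0.01819).

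AQP1, which carries water across proximal tubule and descending limb cells, rose in equal steps. It lay between 108 and 203 CPM in WT (median 124), 140 and 250 in HET (median 187) and 164 and 400 in CF (median 243). The groups overlapped, and 8 of 11 CF libraries were above all WT libraries. Its slope was 0.47 (SE 0.0892, adjusted p = 0.01819), the HET minus WT step 0.47 and the CF minus HET step 0.46, and it was 0.38 in the lower-numbered and 0.55 in the higher-numbered pigs. The call did not hold under every omission of 1 library, with a highest adjusted p of 0.05439. CLDN2, the claudin of the leaky tight junctions of the proximal tubule (named after its values were seen), rose by 0.31 per allele (adjusted p = 0.0426), from 209 ± 36.4 CPM in WT to 276 ± 39.2 in HET and 325 ± 73.4 in CF.

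Other rising genes divided by where HET lay. GADD45B, a stress-induced growth-arrest protein, lay between 12.3 and 20.1 CPM in WT (median 14.9), 12.8 and 27.1 in HET (median 20.4) and 18.8 and 91.3 in CF (median 35.6). CF was the group that spread widest, and the slope of 0.70 (SE 0.14, adjusted p = 0.02201) came with a HET position of 0.22. Its slope was 0.38 in the lower-numbered and 1.01 in the higher-numbered pigs. KLHL24, a ubiquitin ligase adaptor, had its HET median of 169 CPM close to that of WT (165) and below CF (226), a HET position of 0.24 and a slope of 0.30 (adjusted p = 0.007592). LRRC58 had a position of 0.22 and a slope of 0.20 (adjusted p = 0.0185). EFNA1, the membrane-bound ligand ephrin-A1, had a position of 0.65, with means of 42.6 ± 5.02, 56.1 ± 6.51 and 65.0 ± 12.95 CPM (adjusted p = 0.0207).

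The remaining rising genes named by rank had slopes between 0.14 and 0.33. PCMTD1 rose by 0.21 (adjusted p = 0.01183), RNF141, a RING finger protein, by 0.22 (adjusted p = 0.0171) and FBXO21, an F-box subunit of a ubiquitin ligase, by 0.22 (adjusted p = 0.02004). COL4A3BP, the ceramide transfer protein, rose by 0.14 (adjusted p = 0.02193). AK8, an adenylate kinase, rose by 0.33 (adjusted p = 0.02201), from 4.44 ± 0.921 CPM in WT to 7.04 ± 1.24 in CF. Their HET means all lay between the means of WT and CF.

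The falling genes with the smallest p were, in that order, GPR37, NT5C1A, MEST and AK5. GPR37, an orphan G protein-coupled receptor, lay between 14.2 and 21.1 CPM in WT (median 16.7), 8.32 and 16.3 in HET (median 12.5) and 5.8 and 12.7 in CF (median 7.7). All 11 CF libraries were below all WT libraries, and the slope was -0.53 (SE 0.0789, adjusted p = 0.004125). NT5C1A, a cytosolic nucleotidase that makes adenosine from AMP, lay between 40.5 and 53.8 CPM in WT (median 47.9), 24.9 and 41.3 in HET (median 38.1) and 17.3 and 37.2 in CF (median 24.1). Its slope was -0.45 (SE 0.0686, adjusted p = 0.00502), with steps of -0.42 and -0.46. HET pigs 13, 14 and 15, at 24.9 to 36.0 CPM, lay below every WT library, and HET pigs 19, 20 and 21 at 40.2 to 41.3 CPM. AK5, an adenylate kinase, fell with nearly equal steps of -0.36 and -0.38 (slope -0.37, adjusted p = 0.007592), from 26.6 ± 3.17 to 20.7 ± 4.001 and 15.9 ± 3.21 CPM. Its HET pigs 13 and 15 were at 15.12 and 16.45 CPM, within the CF range, and pigs 14, 19, 20 and 21 at 21.15 to 24.57, above every CF library. The adenylate kinases AK5 and AK8 therefore moved in opposite directions.

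MEST, an imprinted gene of fetal growth, lay between 105 and 222 CPM in WT (median 151), 96.1 and 110 in HET (median 105) and 66.1 and 115 in CF (median 88.2). The spread of WT was wider than that of the other groups, with WT pig 12 highest and the higher-numbered WT pigs 22 and 23 lowest. Its slope was -0.39 (SE 0.0613, adjusted p = 0.00502), -0.50 in the lower-numbered and -0.17 in the higher-numbered pigs, and -0.29 with RN18S as a term. LOC110257546, which overlaps MEST in the annotation, had a slope of -0.38 (adjusted p = 0.05831), and reads of such overlapping genes may not be told apart. ALDH1A1, which makes retinoic acid from retinal, lay between 367 and 413 CPM in WT, 240 and 355 in HET and 234 and 326 in CF, with neither HET nor CF overlapping WT (slope -0.24, SE 0.042, adjusted p = 0.01257).

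ACOT7, PAFAH1B3 and PGM3 fell too. ACOT7, an acyl-CoA thioesterase, had a slope of -0.64 (SE 0.115, adjusted p = 0.01334), with means of 9.46 ± 2.24, 6.44 ± 3.03 and 3.94 ± 1.35 CPM (SD). PAFAH1B3, a subunit of platelet-activating factor acetylhydrolase, fell by 0.20 on the log2 scale (adjusted p = 0.02004). PGM3, of the hexosamine pathway, had a HET position of 0.24 and a slope of -0.25 (adjusted p = 0.0171). GPBAR1, the membrane receptor for bile acids, lay between 0.89 and 1.98 CPM in WT (median 1.20), 0.675 and 2.18 in HET (median 1.16) and 0.177 and 0.811 in CF (median 0.439). HET sat with WT at a position of 0.05, and all 11 CF libraries were below all WT libraries (slope -0.80, SE 0.151, adjusted p = 0.0171). These levels rest on 42 to 80 counts per WT library and 6 to 40 per CF library.

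TICRR, MCM10, GINS2, DDX11 and CDCA7 were also among the falling genes named by rank. TICRR and MCM10 act at the firing of replication origins, GINS2 is a subunit of the replicative helicase complex, DDX11 is a DNA helicase of sister chromatid cohesion, and CDCA7 is a cell division gene. MCM10 lay between 18.9 and 27.1 CPM in WT (median 21.6), 12.8 and 20.7 in HET (median 15.8) and 12.2 and 18.7 in CF (median 14.6), and no CF library reached the lowest WT library. Its slope was -0.29 (SE 0.0546, adjusted p = 0.0171) and its HET position 0.73. TICRR had a slope of -0.40 (adjusted p = 0.01334), CDCA7 of -0.33 (adjusted p = 0.0171), DDX11 of -0.22 (adjusted p = 0.0171) and GINS2 of -0.21 (adjusted p = 0.02004). In each of these genes all 11 CF libraries were below all WT libraries. With RN18S as a term the slopes were -0.31 for TICRR, -0.25 for MCM10, -0.32 for CDCA7, -0.22 for DDX11 and -0.20 for GINS2, none of which passed.

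RECQL4 and CHEK1 fell as well and were named after their values were seen. RECQL4, a helicase, had all 11 CF libraries below all WT libraries, with means of 10.7 ± 1.75, 7.60 ± 1.77 and 6.20 ± 1.44 CPM. CHEK1, the checkpoint kinase, fell from 12.8 ± 3.67 CPM in WT to 8.35 ± 1.35 in CF (slope -0.31, adjusted p = 0.04702).

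The 250 bases before the annotated start of MCM10, TICRR and GINS2 are shown as examples of called falling genes, and those of GADD45B because its slope was the largest among rising genes after CFTR. The sequences run 5′ to 3′ on the strand of the gene in Sscrofa11.1 (RefSeq annotation). Capitals mark the words searched on both strands: CCAAT, the E2F words TTTCCCGC, TTTGGCGC, TTTCGCGC and TTTGCCGC, the cAMP response element TGACGTCA, the FoxO word GTAAACA and the SMAD word GTCTAGAC. None of these words contains another.
MCM10 (chr10:48523922-48524171, minus strand): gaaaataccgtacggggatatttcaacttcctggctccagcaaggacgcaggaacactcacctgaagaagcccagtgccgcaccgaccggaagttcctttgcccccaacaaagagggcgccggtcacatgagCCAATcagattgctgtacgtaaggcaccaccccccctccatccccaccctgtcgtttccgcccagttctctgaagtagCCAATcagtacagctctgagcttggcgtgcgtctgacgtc
TICRR (chr7:55142707-55142956, plus strand): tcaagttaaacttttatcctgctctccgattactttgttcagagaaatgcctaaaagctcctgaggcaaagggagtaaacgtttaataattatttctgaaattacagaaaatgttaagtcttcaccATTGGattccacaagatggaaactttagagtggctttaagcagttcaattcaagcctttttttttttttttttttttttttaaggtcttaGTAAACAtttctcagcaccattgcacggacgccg
GINS2 (chr6:3218405-3218654, plus strand): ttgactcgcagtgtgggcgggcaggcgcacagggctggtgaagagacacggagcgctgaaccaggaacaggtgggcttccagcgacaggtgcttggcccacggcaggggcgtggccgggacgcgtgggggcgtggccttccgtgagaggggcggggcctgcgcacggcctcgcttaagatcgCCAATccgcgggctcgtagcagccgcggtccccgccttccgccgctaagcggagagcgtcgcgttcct
GADD45B (chr2:76111459-76111708, minus strand): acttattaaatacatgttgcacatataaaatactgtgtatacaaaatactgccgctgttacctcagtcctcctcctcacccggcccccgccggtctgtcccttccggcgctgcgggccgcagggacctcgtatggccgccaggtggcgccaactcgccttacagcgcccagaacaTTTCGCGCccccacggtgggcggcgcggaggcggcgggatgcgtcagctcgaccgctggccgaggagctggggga

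The CCAAT words of MCM10 begin 118 and 40 bases before the start and that of GINS2 68 bases before it. TICRR holds the reverse form ATTGG 124 bases before the start and a FoxO word at 34 bases, and GADD45B an E2F word at 75 bases. Among genes with such a window, 24 of 44 falling genes (54.5%) held a CCAAT word, against 17 of 51 rising genes (33.3%) and 5477 of all 17276 (31.7%). An E2F word was in 2 of the falling (4.55%), 2 of the rising (3.92%) and 525 of all windows (3.04%), and the falling carriers were BARD1 and FANCC. A FoxO word was in 4 rising (7.84%), 1 falling (2.27%) and 373 of all windows (2.16%), and the cAMP response element was in 1 rising, 1 falling and 316 of all (1.83%). The SMAD word was in no called gene's window and in 30 of all (0.174%). These are matches of letters, chosen with the results known, and were not tested.

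**Figure D2:**
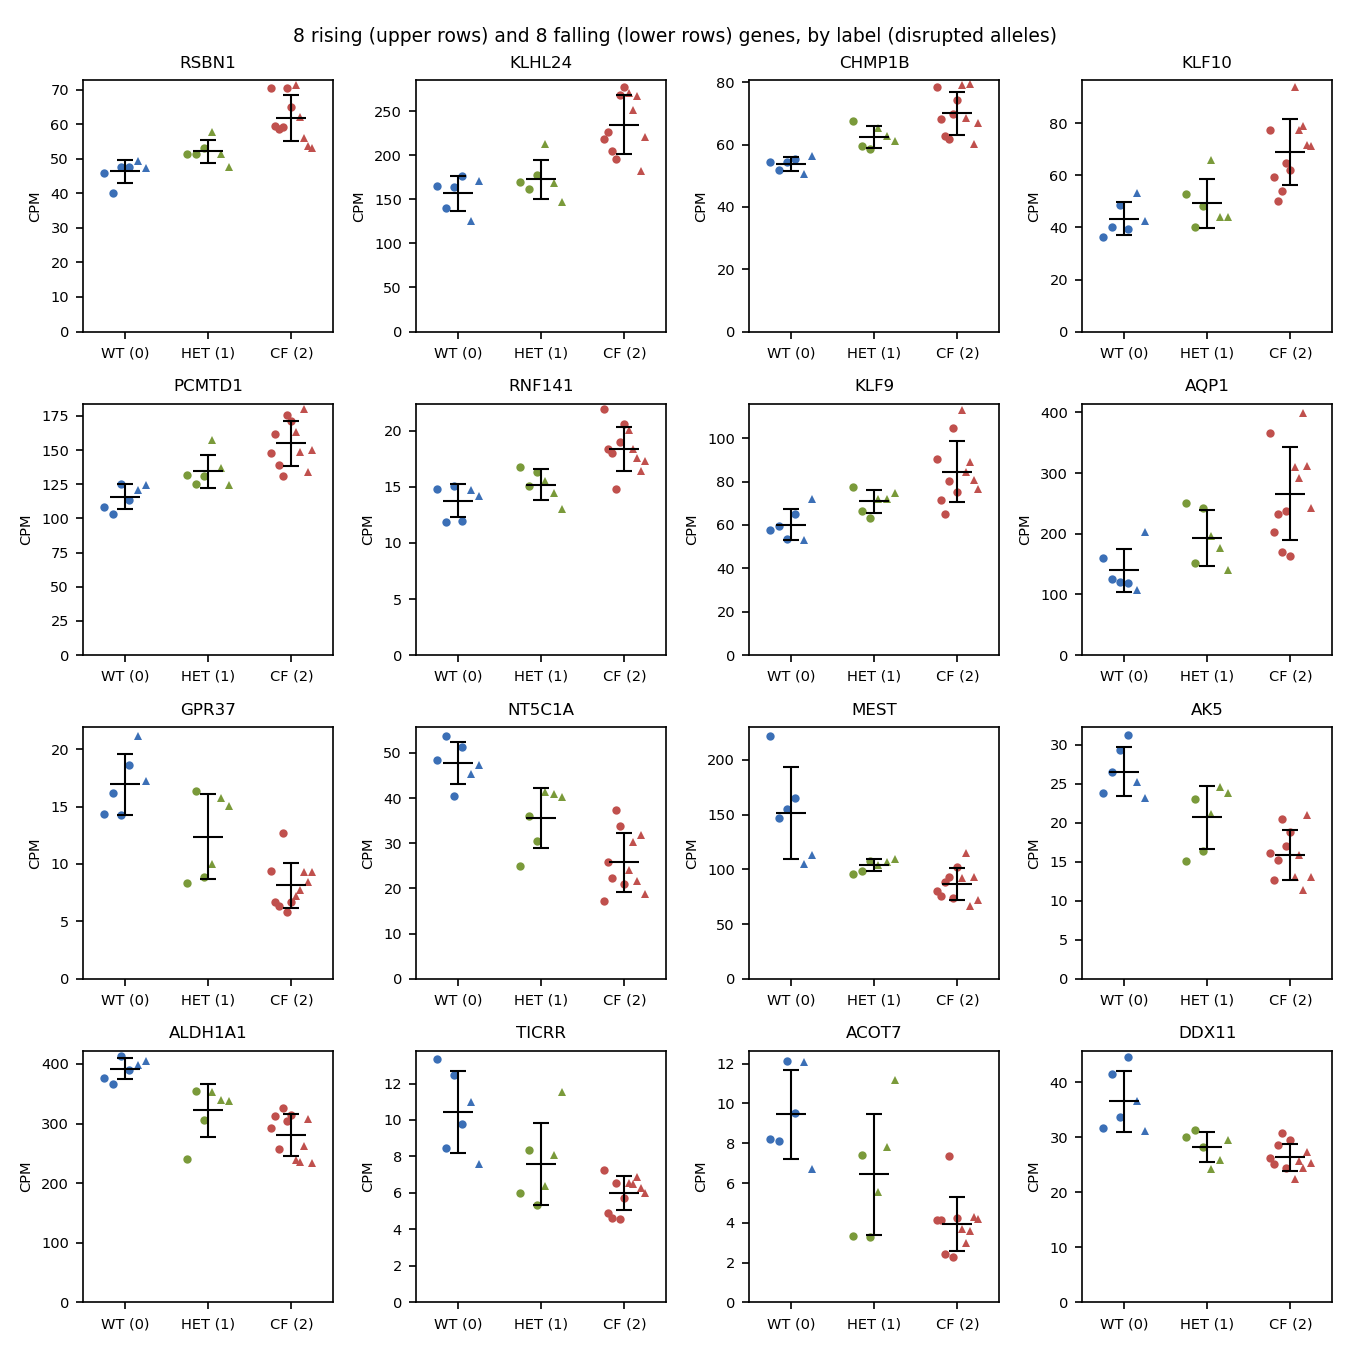
Levels in CPM (vertical axes, from 0) of 8 rising and 8 falling genes with the smallest p, by label and disrupted alleles, leaving out CFTR and RN18S. Each point is 1 library (circles lower-numbered, triangles higher-numbered pigs) and bars give the mean with the SD. For NT5C1A and AK5 the CF libraries lie below all WT libraries, with the HET mean between them and HET libraries overlapping both, while for KLHL24 most HET libraries lie at the level of WT.

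Of the 98 genes, 94 had a mean of the libraries labelled HET between those labelled WT and CF, and on the way from WT (0) to CF (1) its position was from 0.25 to 0.75 in 73 (37 rising, 36 falling). It was under 0.25, near WT, in 15 genes (11 rising, 4 falling), which include KLHL24, PGM3, GPBAR1, LRRC58, GADD45B and SESN2. It was over 0.75, near CF, in 6 genes, CFTR, LOC100624113, DDX11, RN18S, BARD1 and RPS20. In SKIL and C1QL3 the HET mean lay beyond WT on the far side from CF, in CCNB3 it lay at the level of WT, and in DNAH5 it lay beyond CF. DNAH5, an axonemal dynein, was at 47.9 and 51.4 CPM in WT pigs 22 and 23 and at most 7.90 CPM in all other libraries. A linear term favours genes with HET in the middle, so these counts partly follow from the fit. The position is that of a mean, and single HET libraries need not lie midway. For GPR37, HET pigs 13, 15 and 19 were at 8.316 to 9.96 CPM, within the CF range. HET pigs 14, 20 and 21 were at 15.01 to 16.34 CPM, within the WT range. ACOT7 divided by the same pigs, at 3.3 to 5.533 and 7.431 to 11.19 CPM. For CHMP1B and ALDH1A1 every HET library lay beyond the WT range. How many of the 73 genes divided in this way was not tested. Over all 21434 genes both steps went in 1 direction in 7483.

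No gene had the 3 labels in order without overlap (0%). WT and CF alone did not overlap in 49 genes (0.229%), 21 with CF higher and 28 with CF lower, and 28 of the 98 genes were among them.

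**Figure D3:**
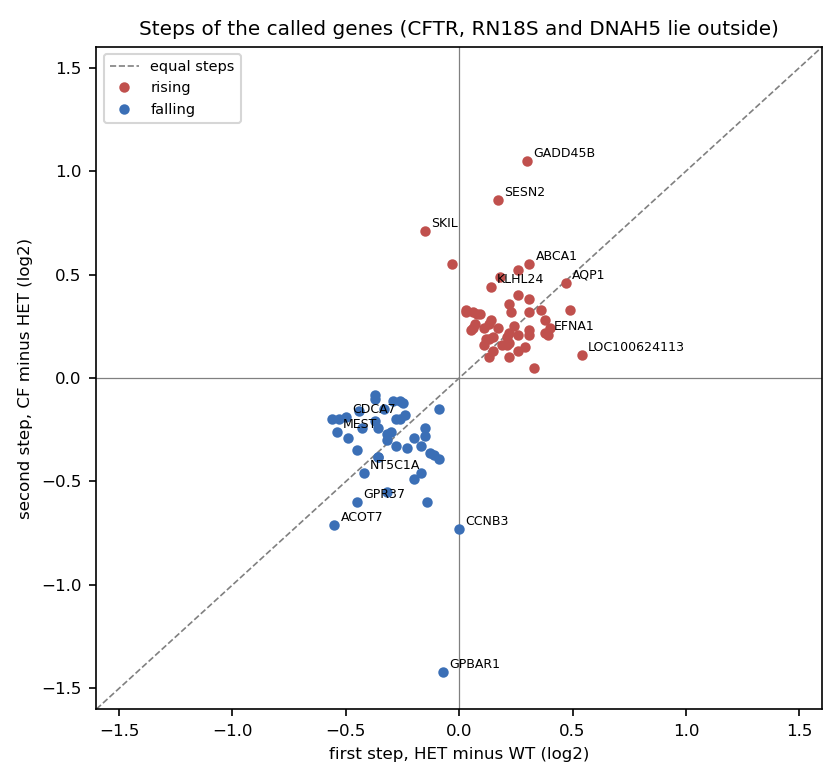
HET minus WT step (horizontal axis, log2) against CF minus HET step (vertical axis, log2) of the called genes, rising in red and falling in blue. CFTR, RN18S and DNAH5 lie outside the axes, and the dashed line marks equal steps. AQP1 lies on the line at 0.47 and 0.46, while GPBAR1 has nearly all its change in the CF minus HET step of -1.42.

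Few genes departed from the straight line. CFTR was among the 2 that passed (0.00933% of genes tested), and 1445 genes had an unadjusted p under 0.05. CFTR passed in 28 of its 35 alternatives. It missed the limit without WT pig 12, 17 or 18 or HET pig 14 or 15 (departures of 0.79 to 0.92), with EIF1AY as a term, and in the lower-numbered pigs alone, where its adjusted p of 0.3272 was the highest. LY96, the co-receptor of TLR4 on macrophages, did not pass, with a departure of 0.94 (SE 0.171, adjusted p = 0.08069), at medians of 4.14, 8.01 and 5.12 CPM. It passed in 7 of its 35 alternatives, among them the fit with the number set as a term (0.86, adjusted p = 0.02676) and the higher-numbered pigs alone (1.09, adjusted p = 0.0256), and its adjusted p ranged from 0.001014 with DESeq2 to 0.7652 in the lower-numbered pigs alone. Among the 98 trend genes, 7 had a departure with an unadjusted p under 0.05, and only CFTR passed.

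All 98 genes had slopes of the same sign in the lower- and the higher-numbered pigs, but those slopes come from the libraries that chose them. The sets share no library, so genes called in 1 set alone were read in the other. In the lower-numbered pigs alone 12 genes passed (0.0555% of 21627): CFTR, FAM8A1, LRRC58, MARCH5, MEST, NAA30, NOS1, PAPPA2, PPTC7, RSBN1, RSRP1 and SLC6A19. In the higher-numbered pigs 10 of these 12 had the same sign (83.3%) and 2 had a p under 0.05. Their median slope size was 0.268 in the lower-numbered pigs, and their median slope in that direction was 0.042 in the higher-numbered pigs. In the higher-numbered pigs alone 49 genes passed (0.226% of 21664), and in the lower-numbered pigs 32 of the 48 tested there had the same sign (66.7%) and 7 a p under 0.05. The median slope size of those 48 was 0.633 in the higher-numbered pigs, and their median slope in that direction was 0.079 in the lower-numbered pigs. Among the 21377 genes tested in both sets the signs agreed in 56%.

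The slope itself differed between the sets in 9 genes (0.042%), with 1990 genes at an unadjusted p under 0.05. They were CRYBG1, LOC110255591, NUDT4, PALD1, PLG, PRR35, SLC16A7, TMEFF2 and TUB. PLG, plasminogen, had a slope of 0.75 in the lower-numbered and -0.64 in the higher-numbered pigs. PRR35 had -0.40 and 0.66, and NUDT4, a diphosphoinositol phosphohydrolase, had 0.20 and -0.30. None of the 9 passed for allele number over all pigs. The higher-numbered set holds only 2 WT pigs, and no gene differed in 14 of the 23 fits with 1 library left out (WT pigs 16, 18, 22 and 23, HET pigs 14, 15, 19 and 20, and CF pigs 2, 4, 5, 7, 9 and 11), while 1 did without WT pig 12.

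**Figure D4:**
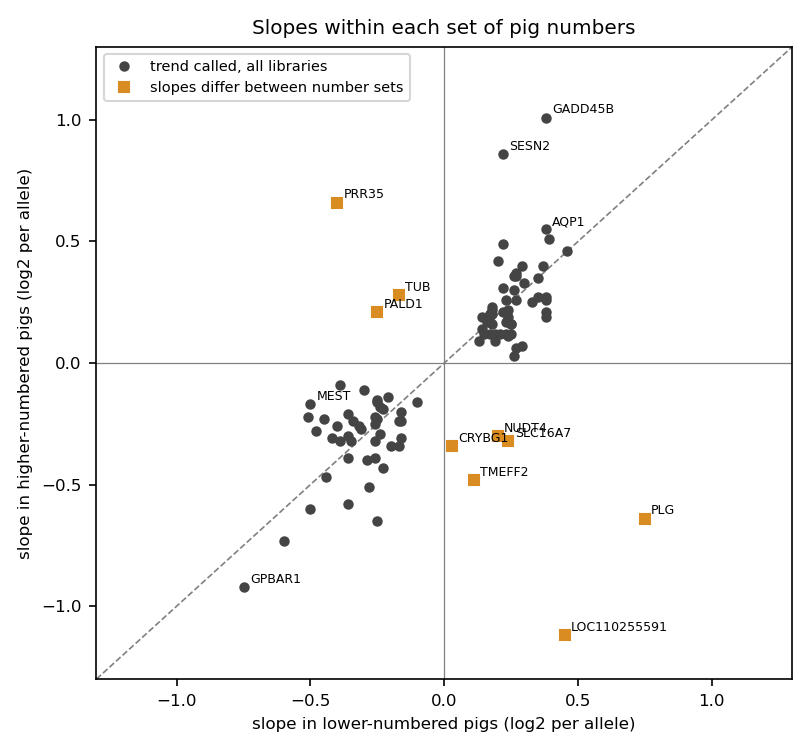
Slope in lower-numbered pigs (horizontal axis, log2 per allele) against slope in higher-numbered pigs (vertical axis), for genes called over all pigs (circles) and the 9 genes whose slope differed between the sets (squares). CFTR, RN18S and DNAH5 lie outside the axes. GADD45B has 0.38 and 1.01, and PLG 0.75 and -0.64.

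CFTR lies on chromosome 18 (chr18:28627717-28818209 in Sscrofa11.1), as do GPR37 (chr18:23019752-23036483), MEST (chr18:18319126-18358655) and AQP1 (chr18:42063482-42076741). These 4 are the called genes of that chromosome, 0.823% of its 486 tested genes, against 0.449% of the 20948 genes elsewhere, and 16.7% against 14.2% had an unadjusted p under 0.05. The share for chromosome 18 counts CFTR itself. Chromosome 15 had 0.859% of its 815 genes called and chromosome 4 0.803% of its 1246. GPR37 is 5.59 Mb, MEST 10.3 Mb and AQP1 13.2 Mb from CFTR. None of the 51 tested genes within 5 Mb of CFTR passed, and 11 of them (21.6%) had an unadjusted p under 0.05. Of the 200 within 15 Mb, 3 passed and 42 (21%) had an unadjusted p under 0.05. The distances were chosen after the positions were seen, and whether the pigs' chromosome 18 differed beyond the disruption was not tested.

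The rest of the change was read through 30 gene lists with 661 distinct tested members. Medians are slopes in log2 per allele, and the median over all genes was -0.001. Of all 21434 genes tested, 1656 (7.73%) had a slope above 0 and 1402 (6.54%) a slope below 0 at an unadjusted p under 0.05. The members' counts stand beside these shares as a description, with no test of the lists. The median steps from WT to HET and from HET to CF had opposite signs in 24 of the 30 lists. The median changed sign in 14 lists with 1 library left out, of which the immediate early and interferon-stimulated genes alone had medians over 0.04 from 0, and in 8 lists it differed in sign between the number sets. In bulk tissue, fewer cells of a type and less RNA per cell cannot be told apart.

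Of 28 chloride channels and anion exchangers, CFTR was the only one that passed, and 6 slopes above 0 had an unadjusted p under 0.05, against 7.73% of all genes (median 0.019). None of 49 amino acid transporters passed (median 0.012, with 27 slopes above 0 and 22 below). SLC7A5, of the large neutral amino acid exchanger, had the smallest p, with a slope of 0.50 (adjusted p = 0.07423), 0.17 in the lower-numbered and 0.79 in the higher-numbered pigs. Of 13 bile acid receptors and transporters 8 had slopes below 0, 2 of them at an unadjusted p under 0.05, and only GPBAR1 passed (median -0.009).

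Among nephron segments, 15 of 18 proximal tubule markers had slopes above 0 (median 0.099), and AQP1 alone passed. The list's median step was 0.207 for HET minus WT and -0.017 for CF minus HET, so as a list it did not move stepwise. The summed level of that list lay between 9055 and 13323 CPM in WT, 10694 and 15334 in HET and 10146 and 17794 in CF. Of 18 loop and distal tubule markers 12 had slopes below 0 (median -0.038, and -0.063 to -0.017 with 1 library left out). In that list 6 slopes below and 4 above 0 had an unadjusted p under 0.05, and none passed. SLC12A3, the thiazide-sensitive sodium-chloride cotransporter of the distal convoluted tubule, had a slope of -0.39 (adjusted p = 0.06401), from 416 ± 84.3 CPM in WT to 343 ± 145 in HET and 244 ± 58.2 in CF. Of 15 collecting duct markers ATP6V1B1, a proton pump subunit of intercalated cells, rose by 0.27 per allele (adjusted p = 0.04693), from 182 ± 24.6 to 226 ± 30.6 and 266 ± 55.9 CPM (list median -0.014, and 0.058 without WT pig 12).

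No marker of podocytes (14 tested, median 0.041, and 0.023 to 0.062 with 1 library left out), nephron progenitors and ureteric bud (18, median -0.012), endothelium (16, median 0.010), stroma and smooth muscle (17, median -0.037, and 0.042 without WT pig 17) or immune cells (18, median 0.007) passed. The members with the smallest p in the last 4 of these lists were WNT9B (slope 0.25, adjusted p = 0.2279), ERG (0.16, 0.1334), FOXD1 (0.11, 0.2959) and AIF1 (-0.18, 0.3194). Of 14 erythroid genes TFRC, the transferrin receptor, which dividing cells also carry, fell with a slope of -0.37 (adjusted p = 0.04693). TFRC lay between 77.8 and 123 CPM in WT, 42.5 and 119 in HET and 43.1 and 70.4 in CF. Its HET libraries divided by number set, with pigs 13, 14 and 15 at 44.4, 53.2 and 42.5 CPM, below every WT library, and pigs 19, 20 and 21 at 100, 119 and 75.5 CPM. The other 13 did not pass (list median -0.070, and -0.009 without WT pig 12).

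Of 28 TGF-beta feedback and target genes, 24 had slopes above 0 (median 0.114), 12 of them at an unadjusted p under 0.05 (7.73% of all genes), and KLF10 and SKIL passed. The list's median step was -0.028 for HET minus WT and 0.198 for CF minus HET. SKIL, a SMAD repressor, did not rise stepwise: it lay between 67.9 and 83.3 CPM in WT, 60.8 and 81.2 in HET and 85.7 and 165 in CF, with all CF libraries above all others (slope 0.31, adjusted p = 0.0426). Of 23 FoxO and insulin signalling genes, 19 had slopes above 0 (median 0.132), 10 at an unadjusted p under 0.05 (again 7.73% of all genes), and KLHL24 and FOXO1 passed. The median was 0.082 without WT pig 22. FOXO1, a transcription factor inhibited by insulin, lay between 56.0 and 62.0 CPM in WT, 56.0 and 67.2 in HET and 63.2 and 95.6 in CF (slope 0.18, adjusted p = 0.03845).

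Of 25 genes of the ATF4 amino acid response, SESN2, a leucine-sensing inhibitor of mTORC1, passed (slope 0.54, adjusted p = 0.04693; list median 0.065, and 0.029 without CF pig 11). It lay between 27.7 and 33.6 CPM in WT, 29.7 and 42.6 in HET and 27.2 and 131 in CF, with slopes of 0.22 in the lower-numbered and 0.86 in the higher-numbered pigs. Of 18 circadian clock genes CRY2, a repressor of the clock, rose by 0.23 per allele (adjusted p = 0.03591; list median 0.049). No gene passed among 27 of cAMP and CREB signalling (median 0.019; CREB1 0.17, adjusted p = 0.05119), 19 immediate early genes (median 0.175; FOSL2 0.28, adjusted p = 0.1617), 17 hypoxia genes (median 0.049; HIF1A -0.09, adjusted p = 0.3431) and 22 interferon-stimulated genes (median 0.150; RSAD2 1.15, adjusted p = 0.3138). The hypoxia median was 0.030 without WT pig 12, and the immediate early and interferon medians rested on single libraries. That of the immediate early genes was -0.025 without CF pig 1, 0.483 without WT pig 12 and 0.580 with RN18S as a term, and 0.245 in the lower- and 0.053 in the higher-numbered pigs. That of the interferon-stimulated genes was -0.116 without CF pig 3, 0.256 without WT pig 18, 0.262 in the lower- and -0.044 in the higher-numbered pigs. RSAD2, an antiviral protein, was at 30.1 CPM in CF pig 3 and at most 0.710 in the other CF libraries, and its slope was -0.56 without that pig.

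Of 20 cholesterol synthesis genes, none passed, 19 had slopes below 0 and 10 of them an unadjusted p under 0.05 (6.54% of all genes did so), with a median of -0.191 and median steps of -0.186 and -0.149. LSS, lanosterol synthase, had the smallest p (slope -0.32, SE 0.0806, adjusted p = 0.06185), from 137 ± 16.3 CPM in WT to 114 ± 36.8 in HET and 88.2 ± 21.5 in CF. The list's median slope was -0.189 in the lower-numbered and -0.222 in the higher-numbered pigs. Its summed level lay between 1298 and 1763 CPM in WT, 786 and 1715 in HET and 804 and 1641 in CF, so the groups overlapped. ABCA1, the cholesterol exporter (named after its values were seen), rose by 0.44 per allele (adjusted p = 0.03548), with all 11 CF libraries, at 142 to 317 CPM, above the highest WT library at 133. The HET libraries lay on both sides of WT: pigs 13, 14 and 15, of the lower-numbered set, were at 211, 138 and 247 CPM, above every WT library, and pigs 19, 20 and 21, of the higher-numbered set, at 99.6, 87.3 and 92.0 CPM, below every WT library.

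Respiratory chain genes did not move stepwise. Although 31 of 32 had slopes below 0 (median -0.069), the median HET minus WT step was 0.154 and the CF minus HET step -0.254. ATP5G1 had the smallest p (slope -0.20, adjusted p = 0.3143). Of 18 glycolysis genes 15 had slopes below 0 (median -0.098), with median steps of 0.132 and -0.312 and medians of -0.032 in the lower- and -0.186 in the higher-numbered pigs, while PFKFB3, which makes the activator of phosphofructokinase, had 0.53 (adjusted p = 0.06401). PFKFB3 was at 33.5 to 40.6 CPM in CF pigs 2 to 6, near the WT range of 29.0 to 39.4. In CF pigs 1 and 7 to 11 it was at 68.6 to 137.7 CPM. None passed among 15 genes of gluconeogenesis and ammonia production (median 0.011; PC 0.30, adjusted p = 0.1305) and 22 of fatty acid oxidation (median -0.002; SLC25A20 -0.22, adjusted p = 0.1426). Of 12 hexosamine pathway genes only PGM3 passed (median 0.020), and 4 slopes below and 1 above 0 had an unadjusted p under 0.05.

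Of 35 cell cycle genes tested, 32 had slopes below 0 and 22 of these an unadjusted p under 0.05 (6.54% of all genes did so), with a median of -0.150 and median steps of -0.093 and -0.209. CCNB3, a B-type cyclin, was the only one that passed (slope -0.40, adjusted p = 0.03548). Its mean was 19.2 ± 3.05 CPM in WT, 19.2 ± 4.93 in HET and 11.6 ± 2.76 in CF, so over all pigs the mean changed in the CF minus HET step. Its HET libraries divided by number set, with pigs 13, 14 and 15 at 13.1, 18.6 and 14.1 CPM and pigs 19, 20 and 21 at 20.6, 23.7 and 25.2. The list's median slope was -0.200 in the lower-numbered and -0.099 in the higher-numbered pigs. The summed level of the list lay between 1435 and 1911 CPM in WT, 1208 and 1848 in HET and 1217 and 1518 in CF.

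Of 49 cytosolic ribosomal proteins 44 had slopes above 0 (median 0.063, and 0.038 without WT pig 12), 15 of them at an unadjusted p under 0.05 (7.73% of all genes), but the median step was 0.220 for HET minus WT and -0.068 for CF minus HET. RPS20 alone passed (slope 0.18, adjusted p = 0.04746), at a HET position of 0.86. Of 20 endoplasmic reticulum chaperones 13 had slopes below 0 (median -0.116), 8 of them at an unadjusted p under 0.05 (6.54% of all genes), 3 slopes above 0 had such a p, and none passed. DNAJB9 had the smallest p, with a slope above 0 (0.21, adjusted p = 0.05831). None of 32 splicing regulators passed (median -0.005; PTBP3 0.23, adjusted p = 0.06464).

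**Figure D5:**
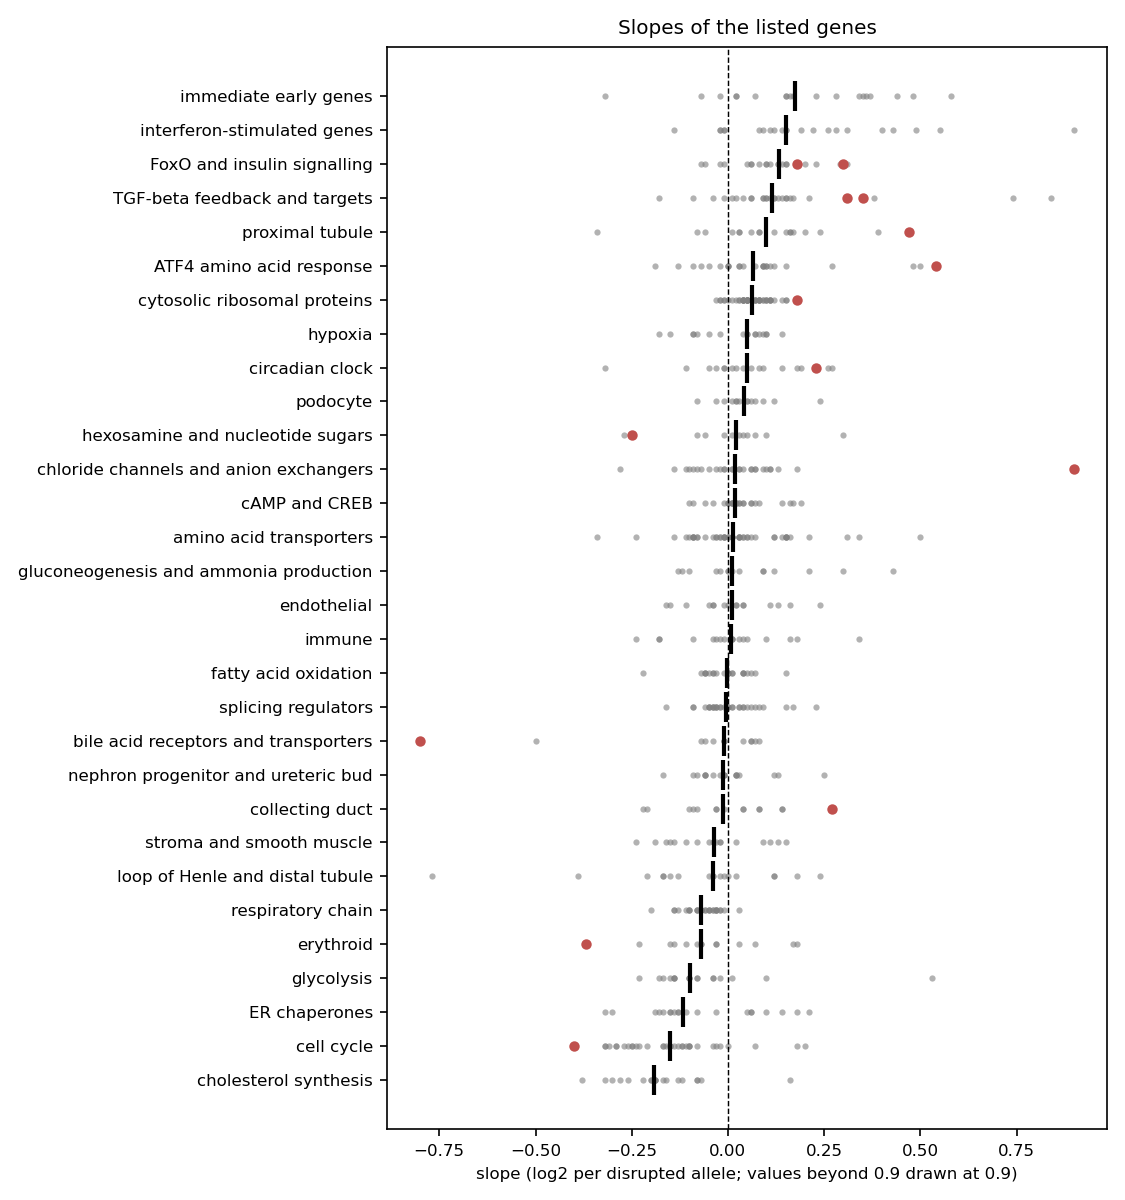
Slopes in log2 per disrupted allele (horizontal axis) of the members of 30 gene lists (rows, ordered by median). Grey points are members, red points those with an adjusted p under 0.05, black bars the list medians, and the dashed line the median of all genes tested. Medians run from -0.191 for cholesterol synthesis to 0.175 for immediate early genes (-0.025 without CF pig 1), and 12 lists hold a called member.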

How the data were processed

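The deposited files hold, for each of 77689 pig transcripts, estimated counts and TPM values that the authors made by pseudoaligning stranded, ribosome-depleted total RNA reads to Sscrofa11.1 with kallisto. The deposited estimated counts are not normalized, and 64.0% of them were not exactly whole as deposited, with no tolerance. They were summed to 26687 symbols and rounded. TPM values were not tested. Whether kallisto was run with strand is not given in the sources used here.

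Allele number (0, 1, 2) was a numeric term in edgeR 4.0.16 on R 4.3.3 with TMM normalization, filterByExpr by genotype and the quasi-likelihood test. Benjamini-Hochberg adjustment covered all genes tested, and the limit was an adjusted p of 0.05. Departure added a HET indicator, and the difference between number sets added the product of allele number and set. Group values are TMM-scaled CPM. P-values measure the spread between pigs, whose litters are unknown. The lists have no set test. Members, lists and motif words were chosen with earlier results of these data known. The text names CFTR, 15 rising and 15 falling genes (lowest p, symbol not starting with LOC), up to 4 called members of each list or its lowest-p member, the top 3 genes for departure and the top 3 for the set difference by p, and EIF1AY. Other genes were named after their values were seen. Items held back for evaluation were left out.

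Alternatives were DESeq2 1.42.0, limma-voom (limma 3.58.1) with and without sample weights, other normalizations and filters, number set or EIF1AY as a term, each number set alone, no HET libraries, the exact Jonckheere-Terpstra test (Python 3.11.15, scipy 1.17.1), and each library left out. RN18S as a term and the codings 0, 0, 1 and 0, 1, 1 were chosen after seeing the data. Fits were tested on simulated data with 200 changed genes. There 6.1% of the edgeR trend calls were false, 12.8% with DESeq2 and 5.0% with limma-voom. The study's own test, a Mann-Whitney U test of CF against non-CF, has no allele trend and was not used here. At these depths a count of 0 allows up to 3 counts, which covers counting error only. Sequences were read with pysam 0.24.0.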

Additional observations from a re-analysis of the deposited data

Results flagged for a closer look

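Of 124 groups of libraries examined for a library far from the others, 5 held one, where chance gives about 1 in 20. RSBN1 was 40.03 CPM in WT pig 16, against 45.95 to 49.22 in the other WT libraries. RN18S was 71280.0 CPM in WT pig 12, against 876.6 to 3952.5 in the others, and 5386.1 CPM in HET pig 21, against 932.7 to 1715.3. FOSL2, an immediate early gene, was 126.7 CPM in WT pig 12, against 75.6 to 88.46. EIF1AY was 0 CPM in HET pig 14, against 16.3 to 21.86 in the other HET libraries.

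The test of the product of allele number and number set gave 9 genes whose slope differed between the higher- and the lower-numbered pigs (difference as higher minus lower, in log2 per allele). The slope was lower in the higher-numbered pigs for CRYBG1 (-0.38, adjusted p = 0.04801), LOC110255591 (-1.58, adjusted p = 0.04801), NUDT4 (-0.51, adjusted p = 0.03397), PLG (-1.40, adjusted p = 0.03397), SLC16A7 (-0.57, adjusted p = 0.03397) and TMEFF2 (-0.60, adjusted p = 0.03397). It was higher for PALD1 (0.45, adjusted p = 0.03397), PRR35 (1.05, adjusted p = 0.03397) and TUB (0.44, adjusted p = 0.04801).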

How the results depend on the processing

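No paired analysis was possible because no pig number occurs under more than 1 label. The slope of CFTR kept its direction under every alternative tried, and its call under all but the coding 0, 0, 1, with HET set with WT, which gave 1.42 (adjusted p = 0.06657, and 0.02291 or lower in all others). The 98 trend calls became 157 with upper-quartile normalization, 215 with a filter of at least 1 CPM in 11 libraries, 600 with DESeq2 (95 of the 98 among them), 209 with the number set as a term (97 of the 98), 55 with the exact Jonckheere-Terpstra test (37 of the 98), 12 in lower- and 49 in higher-numbered pigs alone (5 of the 98 in each), and 9 with the coding 0, 1, 1. With the coding 0, 0, 1 they were 73 (51 rising), 33 of the 98 among them. With EIF1AY as a term they were 94 (38 rising and 56 falling), 76 of the 98 among them. Without the HET libraries they were 70 (24 rising), 50 of the 98 among them. They became 1 with RN18S as a term, with and without WT pig 12. With 1 library left out they ranged from 26 to 255. The 2 departure calls became 1 with the 1 CPM filter, 12 with DESeq2, 5 with voom sample weights, 4 with the number set as a term, 0 by edgeR with EIF1AY as a term (1441 genes at an unadjusted p under 0.05), 9 in lower- and 114 in higher-numbered pigs alone, and 0 to 8 with 1 library left out. The 9 differences between number sets became 91 with DESeq2, 4 with limma-voom, 111 with voom sample weights, and 0 to 52 with 1 library left out.

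Of 2102 slopes over 54 named genes and their alternatives, 6 reversed, none in the 36 called genes, whose call was lost in 298 of 1402. WNT9B had -0.03 in lower-numbered pigs, AIF1 0.00 in higher-numbered pigs, and RSAD2 -0.04 with limma-voom, -0.17 with sample weights, -0.02 with the Jonckheere-Terpstra test and -0.56 to 1.62 with 1 library left out (lowest without CF pig 3). Of 810 list medians under alternatives, 64 had another sign, and 0 moved by more than 1 SD of the list's mean log2 level between libraries of 1 label. That limit is wide: the interferon-stimulated median stayed within it while going from 0.150 to -0.116 without CF pig 3. It therefore says little about how stable the medians are. The causes were not tested. Low counts limit GPBAR1.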
